A study of Saccharomyces cerevisiae with 6 samples.

Results

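SNR17A and SNR17B are the 2 genes for the U3 small nucleolar RNA (snoRNA) of the budding yeast Saccharomyces cerevisiae, and they were the 2 of 239 genes that carried these names in a table of 253 intron-containing rows. They were selected on their intron ratios, the highest means of that table, so every ratio of theirs below is a description without a test. Each array set RNA of cells whose PRP8 gene carried the S2197F change against RNA of cells with wild type PRP8, grown at the same time. In both strains the chromosomal PRP8 gene was deleted and the remaining copy sat on a HIS marked centromeric plasmid. Strain background and number of clones were not given in the sources used here. Overnight cultures of both strains in rich medium at 30 °C were diluted, moved to 37 °C and harvested near an OD600 of 0.7. There were 3 independent pairs of cultures, each read on 2 arrays with the dyes exchanged, so n = 3 for every value, and the 6 arrays carry mutant RNA in one channel and wild type RNA in the other.

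U3 is a box C/D snoRNA that does not guide methylation. It pairs with the precursor of ribosomal RNA and is the RNA at the centre of the small subunit processome, the particle in which the RNA of the small ribosomal subunit is cut and folded. Most snoRNAs are made from genes without introns or are themselves cut out of introns, whereas both yeast U3 genes carry an intron of their own that the spliceosome removes, and the mature U3 is the spliced exons. Prp8 is the protein that holds the active site of the spliceosome, and the series asks how a form of it tied to an inherited loss of the retina acts on splicing. The RefSeq table of assembly R64 lists both genes as snoRNA. The 234 other genes of the data table that matched it were all protein-coding, and 3 did not match, so these were the only RNA genes among the matched ones.

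Each gene had an intron, an exon and a junction feature, which the labels read as pre-mRNA, total mRNA and mature mRNA. For U3, which is no mRNA, these stand for RNA with the intron, all U3 RNA and spliced U3. An intron feature also takes up signal from splicing intermediates and from excised introns, and these were not told apart. Values are the authors' log ratios per pair of cultures, read as mutant over wild type from their headings and assumed to be log2, and a positive value means more signal in the mutant. If the base were another, the order of the genes would stay and the folds would not.

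As deposited and read as log2, the ratios of both U3 introns were above 4-fold in S2197F RNA over wild type RNA. The intron ratio of SNR17A was 2.10, 2.14 and 2.01 in replicates 1, 2 and 3, a mean of 2.08 ± 0.07 (SD, n = 3) or 4.24-fold. That of SNR17B was 2.27, 2.26 and 2.22, a mean of 2.25 ± 0.03 (SD, n = 3) or 4.76-fold. How the authors centred the ratios is unknown. Centred on the intron median of each replicate, the means were 1.79 for SNR17A and 1.95 for SNR17B, both below 4-fold. The single replicates lay between 4.02-fold and 4.41-fold for SNR17A and between 4.65-fold and 4.82-fold for SNR17B, and the ranges of the genes did not overlap. Both were above 0 in 3 of 3 replicates, as were 51.4% of the 245 introns measured in every replicate, while 4.49% were below 0 in all 3. By limma's test across the whole table, 23.5% of 251 introns were called higher in the mutant (59, at an adjusted p under 0.05) and 0% lower (0, with 2 lower at an unadjusted p under 0.05). The number called was 35 without replicate 1 and 2 without replicate 2. The 2 U3 introns are among the 245 and 251 introns over which these shares were taken, so the shares are not of other introns alone. These counts describe the table, and nothing is read from them about the U3 introns, whose ratios chose the genes.

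**Figure D1:**
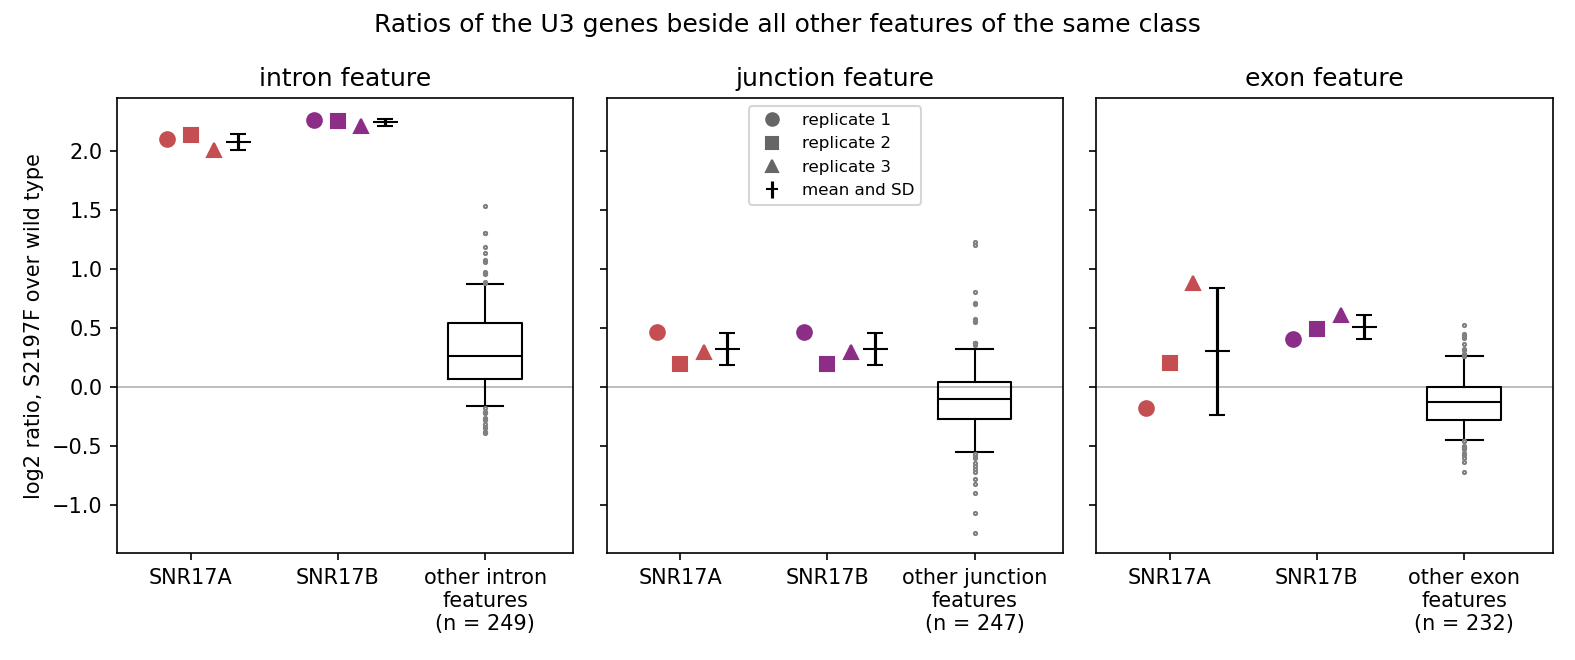
Log2 ratios of S2197F over wild type for the intron, junction and exon feature of SNR17A and SNR17B, with 1 symbol per replicate and the mean and SD beside them, and a box plot of the means of all other features of the class (line, median; box, quartiles; whiskers, 5th and 95th percentiles). Both introns lie above 2.0 in every replicate, the junction symbols are the same for both genes, and the exon of SNR17A spreads from -0.18 to 0.88.

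Next to these, the median over all introns was 0.22, 0.29 and 0.38 in the 3 replicates (0.29 ± 0.08, SD, n = 3), with quartiles of the mean ratios at 0.07 and 0.54. SNR17B was in place 1 and SNR17A in place 2 of 251 introns by the mean. In replicates 1 and 2 they also held places 1 and 2. In replicate 3 SNR17B was in place 2 and SNR17A in place 4. There EPT1, an enzyme of phospholipid synthesis, had 2.23 and YIP3, a membrane protein of vesicle traffic, 2.15. Neither was as high elsewhere: EPT1 had 0.80 and 0.15 in replicates 1 and 2, and YIP3 1.11 and 0.65. EPT1 is named because it exceeded the U3 introns in that replicate, which was seen in the data.

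The gap to the rest differed between the replicates. The lower of the U3 introns exceeded the highest other intron by 0.16 in replicate 1 and by 0.89 in replicate 2, and in both that other intron was TEF4, whose protein is part of the exchange factor of elongation factor 1A. In replicate 3 the lower U3 intron was 0.22 below EPT1, so there the ratios overlapped (difference -0.22). On the means the gap was 0.54, between SNR17A at 2.08 and TEF4 at 1.54. Beyond the U3 genes, 7 of 243 introns had a mean above 1.

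**Figure D2:**
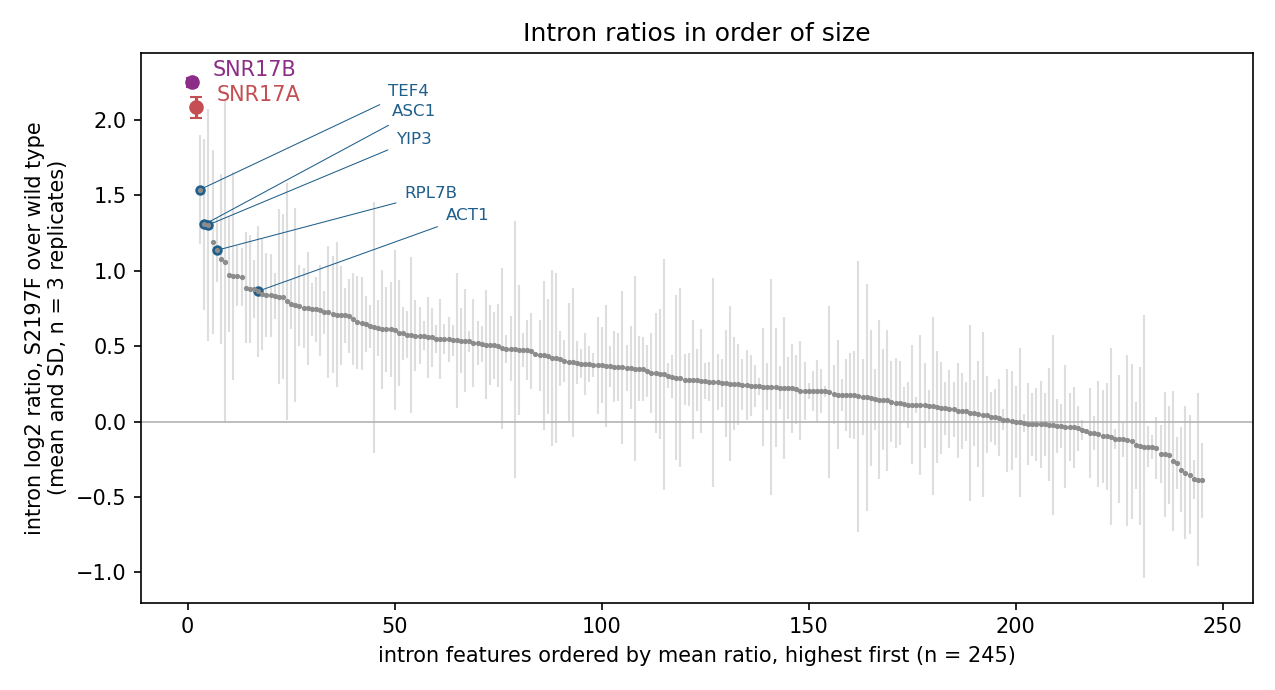
Mean intron log2 ratio of S2197F over wild type for the 245 introns measured in every replicate, from the highest to the lowest, with bars for the SD over 3 replicates. SNR17B at 2.25 and SNR17A at 2.08 come before TEF4 at 1.54, and the named introns that follow have longer bars.

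Among the introns below SNR17B and SNR17A, TEF4 was the highest with 1.95, 1.25 and 1.42 (1.54 ± 0.36, SD, n = 3). ASC1, the yeast RACK1 scaffold protein on the small ribosomal subunit, had 1.33, 0.73 and 1.86 (1.31 ± 0.56, SD, n = 3). YIP3 averaged 1.30 ± 0.77 and the second row of RPL7B, which encodes a protein of the large ribosomal subunit, 1.14 ± 0.21 (SD, n = 3 each). The order among these is within their spread. ACT1, the actin gene and a common reporter of splicing in yeast, had an intron ratio of 0.75, 0.50 and 1.34 (0.86 ± 0.43, SD, n = 3), so its highest replicate was below the lowest replicate of either U3 gene.

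The replicates of the U3 introns lay closer together than those of most introns. The SD of SNR17B, 0.03, was in place 3 and that of SNR17A, 0.07, in place 11 of 245 introns counted from the smallest, where the median SD was 0.27 with quartiles of 0.18 and 0.39. Among the 20 introns with the highest means, the other 18 had SDs from 0.19 to 1.07 with a median of 0.37, and 0 of them were below SNR17A. Values that agree in a few replicates can do so by chance, and no test of the spread was made.

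**Figure D3:**
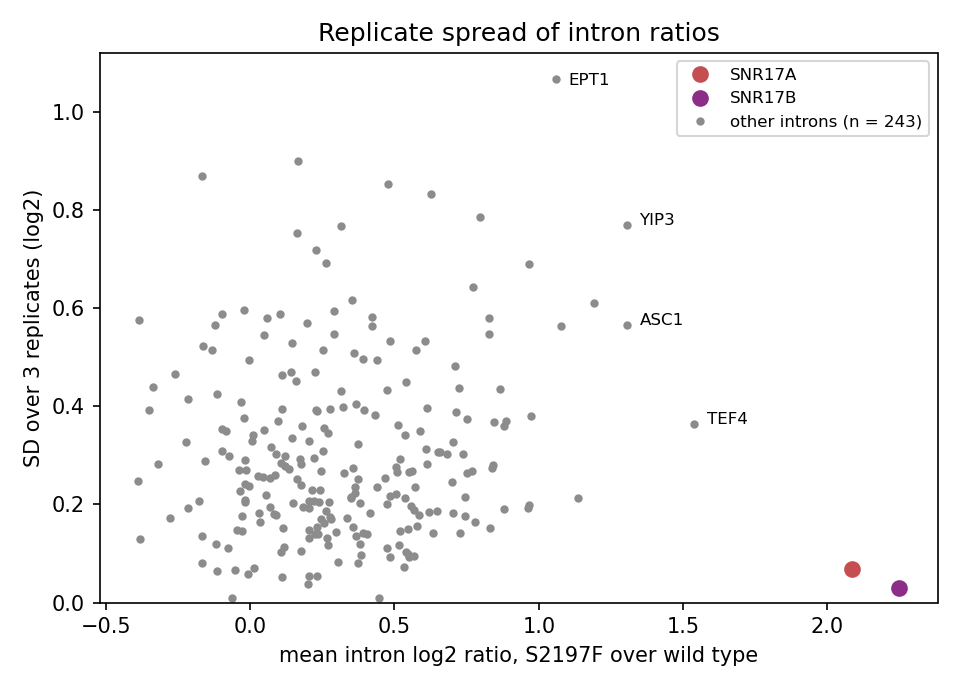
SD of the intron log2 ratio over 3 replicates against its mean, for SNR17A, SNR17B and 243 other introns. The U3 introns lie at the lower right, with means of 2.08 and 2.25 and SDs of 0.07 and 0.03, while TEF4, ASC1, YIP3 and EPT1 have SDs from 0.36 to 1.07.

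The junction of the U3 genes, which stands for spliced U3, was slightly higher in the mutant. It had 0.47, 0.19 and 0.30 in the 3 replicates, a mean of 0.32 ± 0.14 (SD, n = 3) or 1.25-fold, and all 3 were above 0. The table gives SNR17A and SNR17B exactly the same junction values in every replicate, so this is 1 measurement listed under both names, and it cannot tell the copies apart. It was the 1 set of junction values shared by different genes in the whole table. Exon values were shared by rows of the same gene for 10 genes, and intron values by no rows (0), so the U3 introns and exons are separate entries for each copy.

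Most junction ratios were below 0, the other way from that of U3, although few were called. The median over 248 junctions was -0.21, -0.08 and -0.14 in the 3 replicates (-0.14 ± 0.07, SD, n = 3). The U3 junction was in place 15 of 248 by the mean, and in places 25, 38 and 41 of those measured in replicates 1, 2 and 3. Of the junctions measured in every replicate, 6.85% were above 0 in all 3 and 29.7% below. By limma's test 0% of 248 junctions were called higher (0, with 4 higher at an unadjusted p under 0.05) and 0.403% lower (1). The number called was 11 without replicate 1, 0 without replicate 2 and 3 without replicate 3. After centring each replicate on its exon median it was 0. At an unadjusted p under 0.05, limma had 4 higher and 29 lower junctions, and 8 and 15 after that centring. Centred on the intron median of each replicate, the U3 junction ratio was 0.024 in place of 0.32. On the exon median of each replicate it was 0.46. Of the 14 junctions with higher means, the SD over replicates exceeded that of U3 in every case, from 0.19 for the RNA helicase gene DBP2 to 2.05 (n = 2) for MOB2, whose protein activates a kinase of cell polarity.

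The exon features, which stand for total U3, differed in their spread between the entries of the 2 genes. How far each entry reads a single copy was not tested. The exon ratio of SNR17B was 0.41, 0.49 and 0.61, a mean of 0.51 ± 0.10 (SD, n = 3) or 1.42-fold. By the mean it was the second highest of 234 exons after the mRNA export gene YRA1 at 0.53 ± 0.34 (SD, n = 3). In replicates 1, 2 and 3 it was in places 22, 3 and 5. The exon ratio of SNR17A was -0.18, 0.20 and 0.88, a mean of 0.30 ± 0.54 (SD, n = 3), in place 10 of 234. Its 3 replicates fell on both sides of 0, and its SD was in place 217 of 234 counted from the smallest. In replicate 3 it was in place 2 and in replicate 1 in place 126. The mean of SNR17A depended on which replicates entered it: it was 0.54 without replicate 1 and 0.01 without replicate 3. Centred on the intron median of each replicate, the exon of SNR17B had 0.21 and that of SNR17A 0.0065. On the exon median of each replicate they had 0.64 and 0.44.

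Over all exons the median was -0.15, -0.07 and -0.19 in the 3 replicates (-0.14 ± 0.06, SD, n = 3). Exons above 0 in all 3 replicates made up 6.41% of 234, SNR17B among them, and those below 0 made up 33.3%. By limma's test 0% of exons were called in either direction (0 of 234; the unadjusted p was under 0.05 for 4 higher and 26 lower exons).

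Differences between features of the same gene are free of any shift common to an array, and they were large for both copies. Intron minus junction was 1.64, 1.95 and 1.71 for SNR17A (1.76 ± 0.16, SD, n = 3; 3.40-fold). It was 1.80, 2.07 and 1.92 for SNR17B (1.93 ± 0.13, SD, n = 3; 3.81-fold). The 2 genes share the junction in these differences, so they are not independent of each other. By the mean they held places 2 (SNR17B) and 3 (SNR17A) of 247 rows, after YIP3 at 1.98 ± 1.41 and just before TEF4 at 1.76 ± 1.03 (SD, n = 3 each). The median over all rows was 0.43 ± 0.09 (SD of 3 replicate medians).

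The values of YIP3 and TEF4 came from replicates far apart. YIP3 had 1.86, 0.63 and 3.45 and TEF4 2.95, 1.22 and 1.12, whereas the SDs of the U3 genes were in places 16 (SNR17B) and 26 (SNR17A) of 214 counted from the smallest. In single replicates other rows were above the U3 genes: in replicate 1 SNR17B was in place 8 and SNR17A in place 11, and in replicate 3 they were in places 7 and 11. In replicate 2 they were in places 1 and 3.

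**Figure D4:**
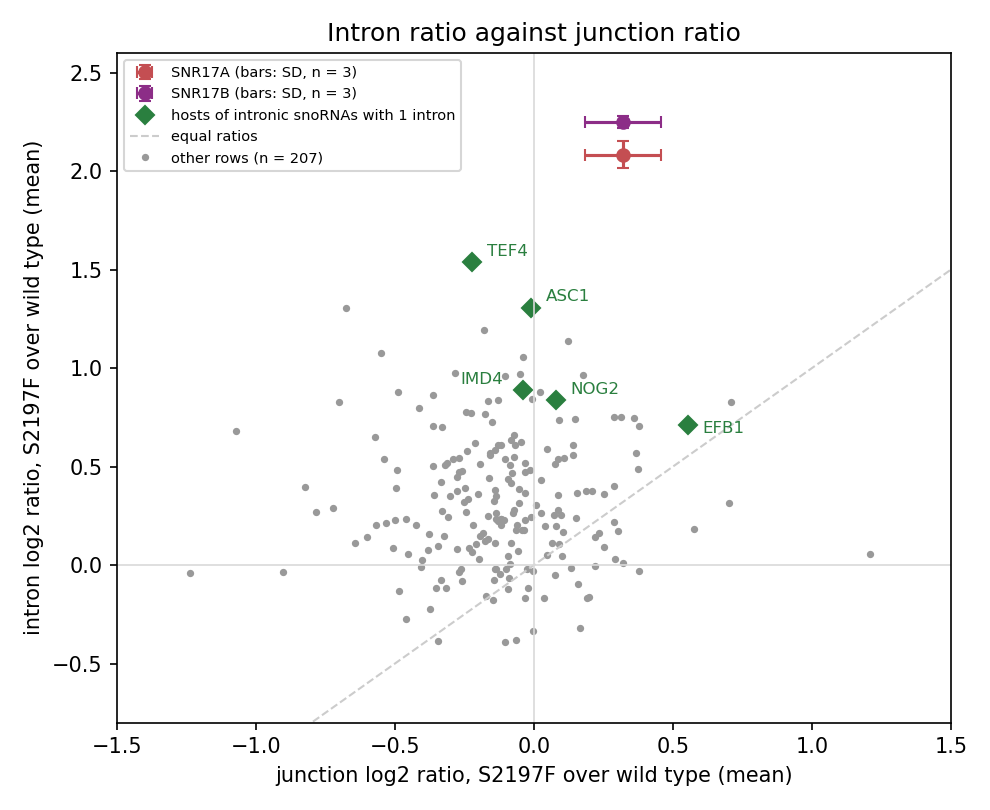
Mean intron log2 ratio against mean junction log2 ratio of S2197F over wild type, for the rows with both measured in all 3 replicates: SNR17A and SNR17B with SD bars, 5 hosts of intronic snoRNAs with 1 intron, and 207 other rows. The U3 genes share a junction ratio of 0.32 and lie above all other points in intron ratio, and the dashed line marks equal ratios.

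Intron minus exon was 2.29, 1.94 and 1.12 for SNR17A (1.78 ± 0.60, SD, n = 3) and 1.86, 1.77 and 1.60 for SNR17B (1.74 ± 0.13, SD, n = 3). By the mean these were places 1 and 2 of 246 rows, where the median was 0.43 ± 0.15 (SD of 3 replicate medians). ASC1 followed at 1.57 ± 0.85 (SD, n = 3), within the spread of SNR17A. In replicates 1, 2 and 3 SNR17A held places 3, 1 and 38, and SNR17B places 7, 2 and 12. The lowest value of SNR17A, in replicate 3, stood beside its highest exon ratio. Junction minus exon was 0.65, -0.01 and -0.58 for SNR17A (0.02 ± 0.62, SD, n = 3) and 0.06, -0.30 and -0.31 for SNR17B (-0.19 ± 0.21, SD, n = 3). Neither kept 1 sign.

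Set against each other, SNR17B had the higher intron ratio in 3 of 3 replicates, by 0.17, 0.12 and 0.21 (0.17 ± 0.04, SD, n = 3; 1.12-fold). Such a difference was of a common size between copies of a gene. Of 43 pairs of ribosomal protein genes named A and B, 19 differed by less in mean intron ratio and 24 by more, with a median of 0.24 in size and a range from 0.01 to 0.99. The exons of the U3 copies differed by 0.59, 0.29 and -0.27 (SNR17B minus SNR17A), a mean of 0.20 ± 0.44 (SD, n = 3). Of 44 ribosomal protein pairs 26 differed by less and 18 by more in the exon. The copies are near-identical in the mature RNA, and the probe sequences were not available here, so how far each exon or intron entry reads a single copy was not tested. An exact two-sided test of 3 differences cannot give a p below 0.25.

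The ribosomal protein pairs all had lower mean intron ratios than the U3 pair, which follows from choosing the U3 genes for the highest means. The pair whose lower member was highest was RPS7A at 0.88 and RPS7B at 0.78, both of the small ribosomal subunit. These are mean intron ratios, against 2.08 for the lower U3 gene.

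**Figure D5:**
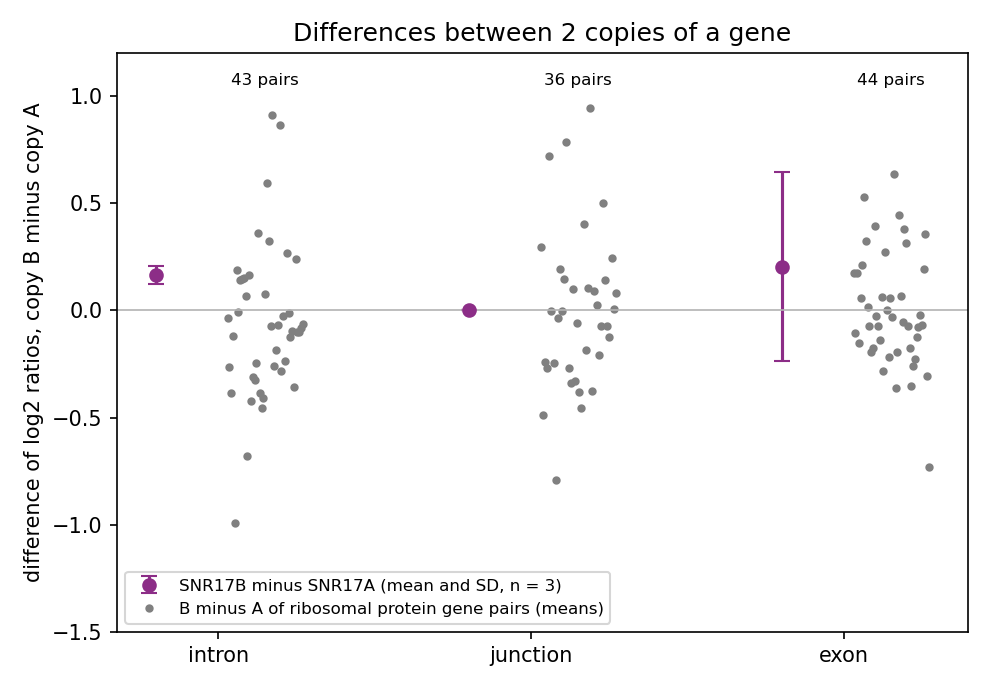
Difference of log2 ratios between copy B and copy A of a gene for the intron, junction and exon features, for SNR17B minus SNR17A (mean and SD of 3 replicates) and for 43, 36 and 44 pairs of ribosomal protein genes (means). The U3 difference is 0.17 for the intron, 0 for the shared junction and 0.20 with a wide bar for the exon, all inside the range of the pairs.

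The U3 genes lie next to a pair of gene copies that the table also holds. In the gene order of assembly R64, SNR17A neighbours RPL33B and SNR17B neighbours RPL33A, which encode the same protein of the large ribosomal subunit. They were taken for their position, after their values were known. The introns of both rose. RPL33A had 1.09, 0.74 and 1.06 (0.96 ± 0.19, SD, n = 3; limma adjusted p = 0.015) and RPL33B 0.65, 0.51 and 0.46 (0.54 ± 0.10, SD, n = 3; limma adjusted p = 0.043). RPL33A did not pass without replicate 2 (limma adjusted p = 0.13), and RPL33B did not pass whichever replicate was left out (limma adjusted p from 0.068 to 0.20) or with a trended and robust variance prior (limma adjusted p = 0.0501). Their exons had means below 0, at -0.36 ± 0.46 for RPL33A and -0.43 ± 0.32 for RPL33B (SD, n = 3 each), which did not pass. The median over all exons was also below 0, at -0.14 ± 0.06 (SD, n = 3). The U3 exons had means above 0, but that of SNR17A, 0.30 ± 0.54 (SD, n = 3), had replicates on both sides of 0. In RefSeq 1 gene, IRC13, overlaps SNR17A and 0 overlap SNR17B. IRC13 is not among the rows of the data table.

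The rows most like the U3 genes were sought over 9 ratios, 3 features in 3 replicates, by the root mean square difference, among 210 rows with all of them. SNR17A and SNR17B differed from each other by 0.26, a value lowered by the junction they share, which adds a difference of 0 in all 3 replicates. The rows next in likeness were the same 5 for both copies: the second row of RPL7B, TEF4, ASC1, NOG2 and RPL28. The second row of RPL7B was nearest, at 0.66 from SNR17A and 0.78 from SNR17B, and TEF4 followed at 0.68 and 0.78. ASC1 stood at 0.75 and 0.81, NOG2, a GTPase of ribosome assembly, at 0.80 and 0.86, and RPL28 of the large ribosomal subunit at 0.80 and 0.84. The median row was at 1.18 from SNR17A and 1.26 from SNR17B, so none of these is a close match. All 5 had a lower mean intron ratio than the U3 genes, which were chosen as the highest, from 0.84 for NOG2 to 1.54 for TEF4.

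Other genes of the table host a snoRNA inside an intron. All 5 on a list of such genes with a single intron rose in the intron by limma, where 23.5% of all introns did. The list was chosen with earlier results of these data known, so this count is a description. TEF4 had the highest mean at 1.54 and EFB1, another part of that exchange factor, the lowest at 0.71 ± 0.39 (SD, n = 3), with limma adjusted p-values from 0.0031 to 0.039. IMD4, an enzyme of guanine nucleotide synthesis, had 0.89 ± 0.37, and NOG2 0.84 ± 0.27 (SD, n = 3 each). Their median was 0.89, against 0.27 over all introns. Without replicate 2 none of the 5 passed (0 calls, limma adjusted p from 0.099 to 0.15), and without replicate 1 EFB1 did not (limma adjusted p = 0.15). The highest single replicate among the hosts, 1.95 for TEF4 in replicate 1, was below the lowest U3 intron value, 2.01. RPL7A, RPL7B and RPS22B, ribosomal protein genes with 2 intron rows each, also host a snoRNA and were not on that list. They were added after their values were seen. Of their 6 intron rows 3 rose by limma, both of RPL7B (0.84 and 1.14) and the first of RPL7A (0.75), with limma adjusted p-values from 0.0084 to 0.024. Without replicate 2 none of the 6 passed (0 calls, lowest limma adjusted p = 0.13), and without replicate 3 the RPL7A row did not (limma adjusted p = 0.056). The second of RPL7A had 0.37 (limma adjusted p = 0.15), and those of RPS22B had 0.14 and -0.04 (limma adjusted p = 0.62 and 0.91). Which of the rows holds the snoRNA was not looked up here.

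Hosts and U3 genes are built the other way round, since the snoRNA of a host lies in the intron that is removed and that of a U3 gene in the exons. The host junctions had means from -0.22 for TEF4 to 0.55 for EFB1, whose replicates were -0.05, -0.07 and 1.79, and the exons from -0.26 for ASC1 to 0.26 for NOG2. None of these 5 junctions or 5 exons passed (0 calls by limma). NOG2 was the host with junction and exon above 0 in every replicate, as for SNR17B. It had 0.03, 0.13 and 0.08 in the junction and 0.34, 0.14 and 0.29 in the exon.

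The proteins that act with U3 could hardly be followed, because the table holds genes with introns. Of 48 genes for proteins of the U3 particle and the small subunit processome, 0 were in it. Of 36 genes for snoRNA processing and cap trimethylation there were 2, LSM2 and LSM7, whose products form the ring that binds the ends of small RNAs. Neither intron passed. LSM2 had 0.71, 0.34 and 0.27 (0.44 ± 0.23, SD, n = 3; limma adjusted p = 0.093) and LSM7 -0.03, 0.34 and 1.56 (0.63 ± 0.83, SD, n = 3; limma adjusted p = 0.16). LSM7 did pass without replicate 1 (0.95, limma adjusted p = 0.0020), and LSM2 after centring on the exon median of each replicate (0.58, limma adjusted p = 0.031). Their junctions and exons did not pass either, with means from -0.16 to 0.12.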

How the data were processed

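The members, gene lists and tests were chosen with earlier results of these data known. The deposited table gives ratios per pair of cultures, read from its headings as mutant over wild type and assumed to be log2. Per the labels, the authors combined each array with its dye flip into 1 value. How the images were read, corrected, filtered and centred, and the probe sequences, were not given in the sources used here. Its base was assumed from the deposited single-array log2 values, which stop at 16.61, the log2 of 100000. Their 9216 spots carry no gene names and were not used further. The number of arrays, 6, limits the precision.

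Rows with identical values in a class counted as 1 feature. Means and SDs were taken over 3 replicates. Features with values in at least 2 replicates (251 introns, 248 junctions, 234 exons) were tested in 1 fit against 0 with limma 3.58.1 in R 4.3.3, two-sided, with Benjamini-Hochberg adjustment within each class at 0.05. The fit was tested on simulated data. Features of SNR17A and SNR17B entered the fit and its counts, but no test of either gene is given. Alternatives were other centrings, medians, complete rows, another variance prior, and leaving out a replicate. The genes named were the U3 genes, ACT1, the 5 next highest introns, the 5 rows most like each U3 gene, and listed genes found in the table; EPT1, RPL33A, RPL33B, RPL7A, RPS22B, and genes named for their place beside the U3 genes were added after their values were seen. A gene that this rule names is not reported here. Gene names were taken from the table, and 250 of 253 rows matched RefSeq.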

Additional observations from a re-analysis of the deposited data

How the results depend on the processing

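SNR17B stayed in place 1 and SNR17A in place 2 of the introns in the alternatives run for the order, which were complete rows alone, medians, and leaving out each replicate. Without 1 replicate the intron ratio was 2.06 to 2.12 for SNR17A and 2.24 to 2.27 for SNR17B. After centring on the exon median of a replicate, SNR17A and SNR17B had intron ratios of 2.22 and 2.39 and SNR17B an exon ratio of 0.64. On the intron median they had 1.79 and 1.95, the shared junction, under either gene, 0.024 and the SNR17B exon 0.21, so the height of the junction and exon ratios depends on the centring, which is unknown. Over the table, 59 introns were called, 91 after centring on exons, and 2 to 47 without 1 replicate (35 without replicate 1 and 2 without replicate 2). Called junctions numbered 1, and 0 after centring on exons or with a trended and robust prior, and 0 to 11 without 1 replicate (11 without replicate 1, 0 without replicate 2 and 3 without replicate 3). The cause was not tested. Of 106 alternative values, 16 moved and 90 stayed within 1 SD, at the same place or within 1.5 times the count. Many of these 90 could not have moved. With 3 replicates, neither a median nor leaving out 1 of them can shift a mean by 1 SD. Centring leaves a difference between features of the same gene unchanged. The 90 are therefore no measure of stability. Of the authors' own means only those of introns were used, and they matched. Each ratio pairs a mutant with a wild type culture on the same arrays, so the limma fit is itself paired.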
